A study of Homo sapiens with 5 samples.

Results

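The genes described here are the G1 cyclins, their kinase CDK6 and the CDK inhibitors that restrain them: CCND1, CCND2, CCND3, CCNE1, CCNE2, CDK6, CDKN1A, CDKN1B, CDKN2A and CDKN2B. They were chosen by symbol, 10 genes of the 37181 entries in the deposited gene table. Where a symbol had more than 1 entry, the entry with the highest mean over the 5 libraries was taken, which mattered for CDK6 alone, with 2 entries. The libraries came from bulk RNA sequencing of HCC827, a human lung adenocarcinoma line that carries an activating deletion in EGFR, and of HCC827/GR, its gefitinib-resistant derivative. The parental line (GS) was represented by replicates 2 and 3 and HCC827/GR (GR) by replicates 1, 2 and 3. HCC827/GR had been made from HCC827 by growth in stepwise increasing gefitinib, an inhibitor of the EGFR kinase, so both lines share the EGFR deletion. The study's methods do not state whether gefitinib was in the medium when RNA was taken. Past selection and drug exposure at that time therefore cannot be told apart. Each line is a single derivation, and nothing states that the replicates came from separate cultures, so the p-values measure the spread among these libraries, which may be technical.

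Cells pass from G1 into S phase when cyclin D bound to CDK4 or CDK6, and then cyclin E bound to CDK2, phosphorylate the retinoblastoma protein and release E2F transcription factors. The INK4 proteins (CDKN2A, CDKN2B) bind CDK4 and CDK6 and keep cyclin D off them, while the CIP/KIP proteins (CDKN1A, also called p21, and CDKN1B, also called p27) bind cyclin-CDK complexes. Signals from EGFR normally raise cyclin D1, and loss of such signals is known to raise p27 and arrest lung cancer cells in G1.

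The measurement is FPKM, fragments scaled to the length of the transcript and to the mapped fragments of the library, which allows levels of different genes to be compared. No read counts come with FPKM, so the depth of each library and its counting error are unknown. HCC827/GR was compared with HCC827 by limma on log2(FPKM + 1) over the 16189 entries that averaged 0.5 FPKM or more, and adjusted p-values are Benjamini-Hochberg values over all of them. Fold changes on this scale understate the change of low genes. All libraries of the same line correlated at 0.913 to 0.928 (Pearson's r over the entries tested) and libraries of different lines at 0.851 to 0.873. Entries of small RNA genes took between 5.55% and 19.4% of the summed FPKM of a library.

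Among the 10 genes, 9 passed the filter on low values and 2 of these, CDKN1A and CDKN2A, were lower in HCC827/GR at an adjusted p under 0.05 (limma). None was higher by limma, at an unadjusted p under 0.05 or under Ballgown's model, and none was lower under the latter. Over all entries tested, 5.71% were lower by the same call, 5.26% were higher and 11.0% passed in either direction. The values of the 2 lines did not overlap for 5 of the 9 genes, against 46.3% of all entries tested. The thresholds of the study, which used Ballgown, were a fold of 2 or more either way together with an unadjusted p under 0.05. They were applied here to limma's estimates on log2(FPKM + 1), and none of the 9 passed, against 6.94% of all entries. By its ratio of mean FPKM, 0.319, CDKN1A did reach that fold. The median log2 fold change of the 9 was -0.39, beside 0.0014 over all entries tested. In a bulk culture, fewer cells in a phase of the cycle and less RNA per cell cannot be told apart.

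**Figure D1:**
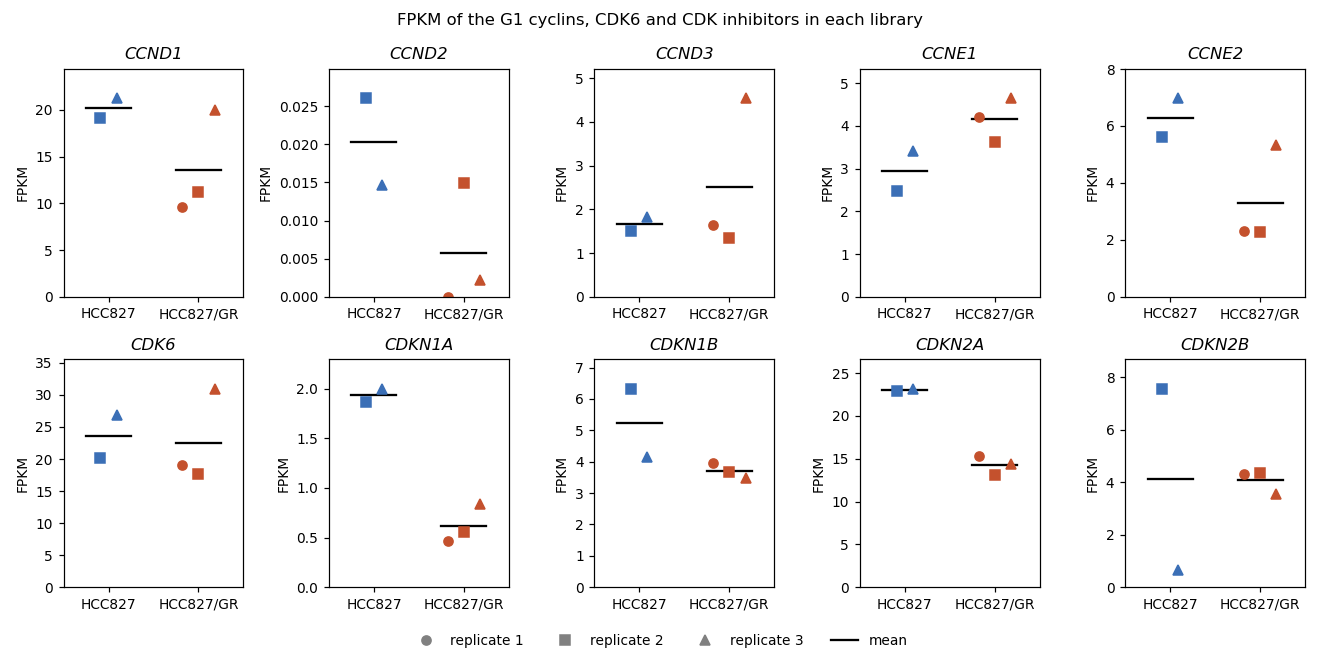
Each panel plots the FPKM of 1 gene, with the parental HCC827 libraries (blue) on the left and the HCC827/GR libraries (red) on the right; symbols mark the replicate, horizontal lines the mean, and each panel has its own axis from 0. CDKN1A and CDKN2A were lower in all 3 HCC827/GR libraries than in both parental ones, while the HCC827/GR replicate 3 lies above the other 2 for CCND1, CCND3, CCNE2 and CDK6.

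Both inhibitors that passed the test are shown with the DNA just upstream of their start sites, to place their transcripts. CDKN1A lies on chromosome 6 (GRCh38, chr6:36676460-36687339, plus strand), with up to 4 exons per transcript. CDKN2A lies on chromosome 9 (chr9:21967753-21995301, minus strand), also with up to 4 exons. CDKN2A has separate starts for p16INK4a, the CDK4 and CDK6 inhibitor, and for p14ARF, which is read in another frame. The sequences below are the 250 bases before the RefSeq start (GRCh38.p14), written 5′ to 3′ on the strand of the gene, and capitals mark GGGCGG, the GC box bound by Sp1. They cover chr6:36678464-36678713 for CDKN1A, chr9:21974858-21975107 before the p16INK4a start and chr9:21995325-21995574 before the p14ARF start.
CDKN1A: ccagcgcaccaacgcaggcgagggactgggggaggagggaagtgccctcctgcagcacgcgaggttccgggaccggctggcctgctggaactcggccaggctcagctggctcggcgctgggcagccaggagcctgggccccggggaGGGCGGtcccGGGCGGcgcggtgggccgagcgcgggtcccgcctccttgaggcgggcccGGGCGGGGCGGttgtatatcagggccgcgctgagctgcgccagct
CDKN2A, p16INK4a start: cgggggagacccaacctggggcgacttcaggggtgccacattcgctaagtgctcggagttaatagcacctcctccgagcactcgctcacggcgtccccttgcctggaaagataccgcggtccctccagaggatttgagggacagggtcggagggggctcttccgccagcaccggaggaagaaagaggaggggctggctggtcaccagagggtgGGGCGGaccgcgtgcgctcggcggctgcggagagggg
CDKN2A, p14ARF start: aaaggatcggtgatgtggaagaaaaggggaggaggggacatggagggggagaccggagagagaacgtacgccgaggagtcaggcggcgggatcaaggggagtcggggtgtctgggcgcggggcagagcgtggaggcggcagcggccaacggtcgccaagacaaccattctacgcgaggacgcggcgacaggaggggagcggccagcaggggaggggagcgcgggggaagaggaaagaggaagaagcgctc
The GC box, searched on both strands, was found 4 times before CDKN1A, where the last pair of matches shares 1 base. It was found 1 time before the p16INK4a start and 0 times before the p14ARF start. It occurred in 42.5% of 34943 RefSeq promoters of the same length. The E2F words TTTCCCGC, TTTCGCGC, TTTGCCGC and TTTGGCGC, searched on both strands, had 0 matches in the 3 windows and occurred in 2.77% of the promoters. TATAAA also had 0 matches and occurred in 10.8%. RefSeq entries were matched for 7 of the 10 genes.

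The D cyclins sense growth signals, and CCND1 carried most of their mRNA. CCND1 was at 19.1 and 21.2 FPKM in the parental replicates 2 and 3, and at 9.56, 11.2 and 19.9 FPKM in the HCC827/GR replicates 1, 2 and 3. HCC827/GR replicates 1 and 2 were thus low, and replicate 3 lay between the parental values. CCND1 averaged 13.6 ± 5.58 FPKM (SD, n = 3) in HCC827/GR and 20.2 ± 1.49 FPKM (SD, n = 2) in HCC827, a log2 fold change of -0.60 (SE 0.32, 95% interval -1.44 to 0.23, limma adjusted p = 0.31). Without HCC827/GR replicate 3 it was -0.90, with an adjusted p of 0.051 (limma), which also missed the threshold.

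CCND3, the D cyclin best known from lymphoid cells, was at 1.5 and 1.83 FPKM in the parental libraries and at 1.65, 1.34 and 4.54 FPKM in HCC827/GR replicates 1, 2 and 3. Replicate 3 was the one high library, and the other 2 lay within or below the parental range. Its log2 fold change of 0.29 (SE 0.41, 95% interval -0.77 to 1.36, limma adjusted p = 0.70) turned to -0.09 without that library. CCND2 was close to absent, at 0.0261 and 0.0147 FPKM in HCC827 and at 0, 0.0150 and 0.00215 FPKM in HCC827/GR, and it was not tested.

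As a share of the summed D cyclin FPKM, CCND1 held 92.6% and 92.0% in HCC827 and 85.3%, 89.2% and 81.4% in HCC827/GR. CCND3 made up nearly all of the remainder, with 7.24% and 7.92% in HCC827 and 14.7%, 10.7% and 18.6% in HCC827/GR. The groups did not overlap in either share. The CCND3 share was 14.6% ± 3.95 (SD, n = 3) in HCC827/GR and 7.58% ± 0.478 (SD, n = 2) in HCC827, a difference of 7.07 percentage points (exact permutation test, two-sided, p = 0.20). With 5 libraries there are 10 arrangements, and the smallest p they allow is 0.1, so this test cannot pass 0.05.

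The E cyclins activate CDK2 at the G1/S boundary and are interchangeable in many cells, yet their estimates had opposite signs. CCNE1 was at 2.47 and 3.41 FPKM in HCC827 and at 4.21, 3.62 and 4.65 FPKM in HCC827/GR, so every HCC827/GR library was above both parental ones. Its log2 fold change was 0.40 (SE 0.16, 95% interval -0.01 to 0.80, limma adjusted p = 0.19). CCNE2 was at 5.62 and 6.97 FPKM in HCC827 and at 2.32, 2.28 and 5.32 FPKM in HCC827/GR, where all 3 libraries lay below both parental ones and replicate 3 was close to them. Its log2 fold change was -0.83 (SE 0.34, 95% interval -1.71 to 0.06, limma adjusted p = 0.21), and without HCC827/GR replicate 3 it was -1.14 with an adjusted p of 0.041 (limma).

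Neither E cyclin passed the test with all 5 libraries. Since CCNE1 was higher and CCNE2 lower in every HCC827/GR library than in both parental ones, the CCNE1 share necessarily separated the lines. CCNE1 made up 30.5% and 32.8% of the summed E cyclin FPKM in HCC827, and 64.4%, 61.4% and 46.6% in HCC827/GR. The mean share was 57.5% ± 9.53 (SD, n = 3) in HCC827/GR and 31.7% ± 1.63 (SD, n = 2) in HCC827, a difference of 25.8 percentage points (exact permutation test, two-sided, p = 0.20, smallest possible 0.1). This share was chosen after the values of both genes had been seen. The summed E cyclin FPKM overlapped between the lines, with 8.08 and 10.4 in HCC827 and 6.53, 5.90 and 9.97 in HCC827/GR.

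**Figure D2:**
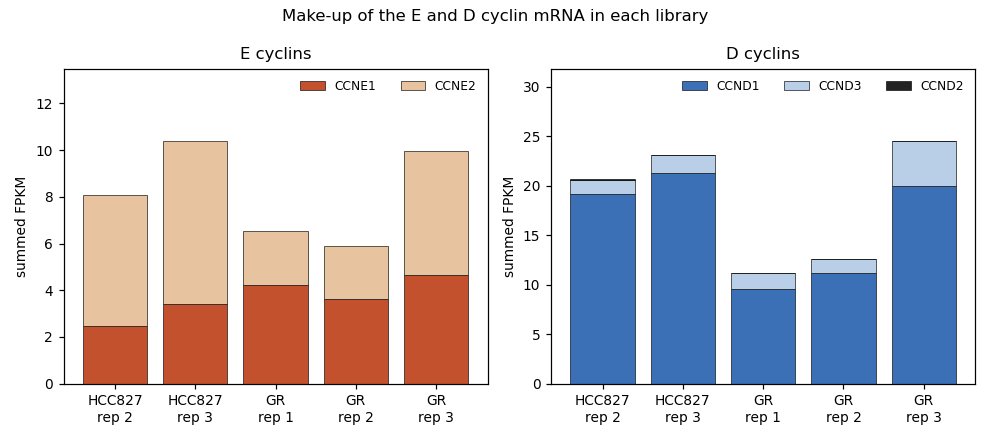
Stacked bars give the summed FPKM of the E cyclins (left) and of the D cyclins (right) in each of the 5 libraries, with 1 colour per gene. CCNE1 is the smaller part of the E cyclin bar in both HCC827 libraries and the larger part in HCC827/GR replicates 1 and 2, and CCND1 fills at least 81.4% of every D cyclin bar.

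CDK6, a catalytic partner of the D cyclins, had the highest mean of the 10 genes in both lines. It was at 20.2 and 26.9 FPKM in HCC827 and at 19.1, 17.6 and 31.0 FPKM in HCC827/GR. The lines overlapped, with HCC827/GR replicate 3 the highest of all 5 libraries. The log2 fold change was -0.09 (SE 0.29, 95% interval -0.83 to 0.66, limma adjusted p = 0.88), and its sign turned without HCC827/GR replicate 1, HCC827/GR replicate 2 or HCC827 replicate 3. A second, short CDK6 entry assembled from the reads stayed between 0 and 1.18 FPKM.

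CDK4, the other partner of the D cyclins, was far more abundant, at 619 and 810 FPKM in HCC827 and 483, 455 and 550 FPKM in HCC827/GR. All HCC827/GR libraries were lower than both parental ones, with a log2 fold change of -0.52 (SE 0.17, limma adjusted p = 0.14). By mean FPKM it ranked at 17 of all entries, and its level was 30.7 and 30.2 times that of CDK6 in HCC827 and 25.3, 25.8 and 17.8 times in HCC827/GR. CDK2, the partner of cyclin E, was at 12.4 and 11.4 FPKM in HCC827 and at 7.47, 4.26 and 9.41 FPKM in HCC827/GR, with a log2 fold change of -0.74 (SE 0.31, limma adjusted p = 0.22).

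Of the CIP/KIP inhibitors CDKN1A and CDKN1B, CDKN1A was the one that passed the test. CDKN1A halts cyclin E-CDK2, and it was at 1.87 and 2.0 FPKM in HCC827 and at 0.461, 0.556 and 0.834 FPKM in HCC827/GR. Every HCC827/GR library was below both parental libraries, with a gap wider than the range within either line. CDKN1A averaged 0.617 ± 0.194 FPKM (SD, n = 3) in HCC827/GR and 1.93 ± 0.0949 FPKM (SD, n = 2) in HCC827, a ratio of the means of 0.319. On the log2(FPKM + 1) scale it fell by 0.87 (SE 0.15, 95% interval -1.24 to -0.49, limma adjusted p = 0.031). The pseudocount of 1 is close to these values, and with 0.1 in its place the log2 fold change was -1.54. Leaving out HCC827/GR replicate 1 or 2, or either parental library, took its adjusted p to between 0.087 and 0.12 (limma), and it was called in 7 of 15 alternatives and kept its sign in all 15.

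CDKN1B, which holds back CDK2 in resting cells, was at 6.33 and 4.15 FPKM in HCC827 and at 3.95, 3.67 and 3.49 FPKM in HCC827/GR. The HCC827/GR libraries were all lower, though parental replicate 3 lay close to them. CDKN1B had a log2 fold change of -0.39 (SE 0.18, 95% interval -0.84 to 0.07, limma adjusted p = 0.25). CDKN1C (p57), the remaining member of the CIP/KIP family, went the other way, at 0.661 and 0.276 FPKM in HCC827 and at 3.75, 3.54 and 2.0 FPKM in HCC827/GR. CDKN1C rose by 1.46 on the log2 scale (SE 0.26, limma adjusted p = 0.034) and was called in 8 of 15 alternatives. The difference between the fold changes of CDKN1A and CDKN1C was not tested.

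Of the INK4 inhibitors, CDKN2A was one of the more abundant transcripts, with 3.64% of all entries above its mean of 17.8 FPKM. CDKN2A was at 22.9 and 23.2 FPKM in HCC827 and at 15.3, 13.1 and 14.4 FPKM in HCC827/GR. The libraries of each line lay close together and the lines did not overlap. CDKN2A fell from 23.0 ± 0.225 FPKM (SD, n = 2) to 14.2 ± 1.09 FPKM (SD, n = 3), a ratio of 0.619 and a log2 fold change of -0.66 (SE 0.10, 95% interval -0.92 to -0.40, limma adjusted p = 0.025). Its single entry pools 13 Ensembl transcripts, so p16INK4a and p14ARF cannot be told apart. Leaving out any 1 library took its adjusted p to between 0.066 and 0.099 (limma), with log2 fold changes between -0.71 and -0.60. It was called in 8 of 15 alternatives and kept its sign in all 15.

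CDKN2B (p15INK4b), which TGF-β is known to induce, lies next to CDKN2A (chr9:22002903-22009363, minus strand) and gave no usable comparison. It was at 7.56 and 0.659 FPKM in the parental replicates 2 and 3, and at 4.32, 4.37 and 3.55 FPKM in HCC827/GR. The HCC827/GR libraries were close together and lay between the parental values. The log2 fold change was 0.43 (SE 0.71, 95% interval -1.42 to 2.27, limma adjusted p = 0.76). Without HCC827 replicate 2 it was 1.61 (limma adjusted p = 0.043), and without HCC827 replicate 3 it was -0.76 (limma adjusted p = 0.10), so a single parental library set the direction. CDKN2C (p18), another INK4 gene, showed the same kind of spread, at 1.90 and 7.91 FPKM in HCC827 and at 5.80, 4.84 and 5.55 FPKM in HCC827/GR (log2 fold change 0.33, limma adjusted p = 0.72).

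**Figure D3:**
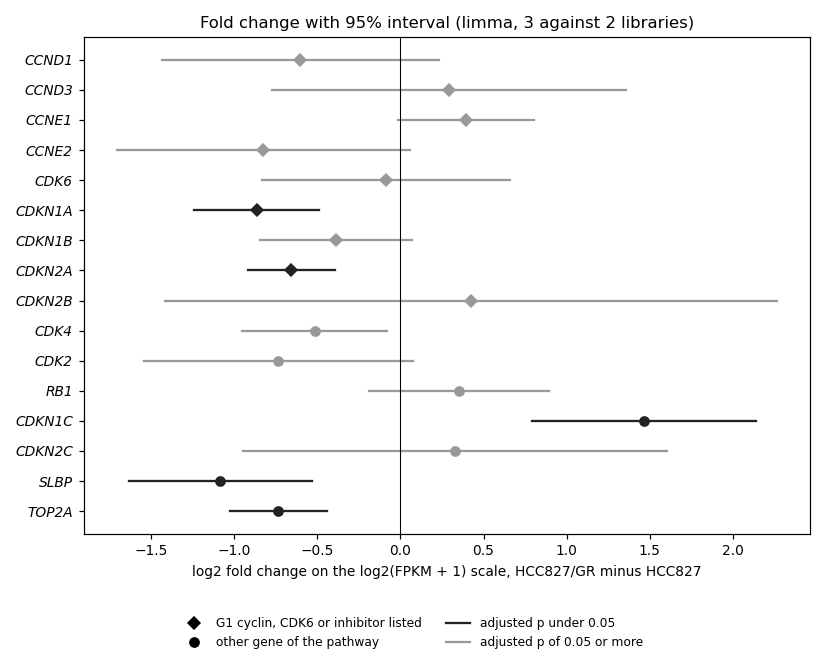
Log2 fold changes of HCC827/GR against HCC827 are drawn with their 95% intervals from limma for the 9 genes tested (diamonds) and for other genes of the pathway (circles), black where the adjusted p was under 0.05. The intervals of CDKN1A and CDKN2A lie below 0 and that of CDKN1C above 0, while the intervals of the cyclins and CDK6 cross 0.

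The order of the levels changed in its middle and lower parts. In HCC827 the order was CDK6, CDKN2A, CCND1, CCNE2, CDKN1B, CDKN2B, CCNE1, CDKN1A, CCND3 and CCND2. The ranges of CDK6 and CDKN2A overlapped, as did those of each neighbouring pair from CCNE2 to CCNE1. In HCC827/GR the order was CDK6, CDKN2A, CCND1, CCNE1, CDKN2B, CDKN1B, CCNE2, CCND3, CDKN1A and CCND2. There the ranges of CDKN2A and CCND1 overlapped, as did those of each neighbouring pair from CCNE1 to CCND3.

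Calls among genes that act downstream of the G1 kinases are given beside the 11.0% of all entries tested that passed in either direction. RB1, which encodes the retinoblastoma protein, was at 11.3 and 10.5 FPKM in HCC827 and at 15.7, 16.9 and 10.8 FPKM in HCC827/GR, with a log2 fold change of 0.35 (SE 0.21, limma adjusted p = 0.35). None of the 17 tested genes of the RB, E2F and DREAM list passed in either direction by limma (1 had an unadjusted p under 0.05, and leaving out HCC827 replicate 2 gave 1 call), and their median log2 fold change was -0.07. Of 16 tested genes for the turnover of G1 cyclins and CIP/KIP inhibitors, 1 was lower and none was higher, with a median of 0.05. At an unadjusted p under 0.05, 2 were lower and 2 higher, a share near the 27.2% of all entries tested. The lower one was CUL4B, a scaffold of ubiquitin ligases, at 22.7 and 17.0 FPKM in HCC827 and at 11.6, 9.47 and 10.4 FPKM in HCC827/GR (log2 fold change -0.85, SE 0.16, limma adjusted p = 0.041). In the list of other G1 kinases and inhibitors, CDKN1C was the 1 gene of 10 tested that passed, and their median was 0.04.

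Of the 25 tested E2F target genes of DNA replication, 1 was lower and none was higher, which is no larger a share than the 5.71% over all entries tested. An estimate below 0 was found for 23 of the 25, against 49.8% of all entries, and the median was -0.36. At an unadjusted p under 0.05, 5 were lower and 0 higher, against 27.2% of all entries in either direction. The lower one was SLBP, which binds histone mRNA, at 25.9 and 21.4 FPKM in HCC827 and at 9.17, 9.33 and 13.8 FPKM in HCC827/GR (log2 fold change -1.09, SE 0.21, limma adjusted p = 0.042). The replicates also differed from each other. HCC827 replicate 3 was above replicate 2 in 24 of the 25 genes, by a median of 0.41 on the log2 scale, against 48.5% of all entries tested. HCC827/GR replicate 3 was the highest HCC827/GR library in 20 of the 25, against 31.2% of all entries tested.

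The same libraries stood high among the D and E cyclins and CDK6, though not among most of the inhibitors. HCC827/GR replicate 3 was the highest of its line in 6 of the 9 genes tested. These were CCND1, CCND3, both E cyclins, CDK6 and, of the inhibitors, CDKN1A alone. HCC827 replicate 3 was above replicate 2 in 7 of the 9, the exceptions being CDKN1B and CDKN2B. The part of this spread in the values of the cyclins was not tested. Among 9 S, G2 and M cyclins and proliferation markers, all 9 estimates were below 0 (49.8% of all entries tested), with a median of -0.29. Of the 9, 1 passed, against 11.0% of all entries tested in either direction. It was TOP2A, the topoisomerase of dividing cells, at 152 and 157 FPKM in HCC827 and at 92.6, 84.3 and 100.2 FPKM in HCC827/GR (log2 fold change -0.74, SE 0.11, limma adjusted p = 0.025). The summed FPKM of this list was 425 to 482 in HCC827 and 320 to 399 in HCC827/GR, and its part in the lower CDKN1A and CDKN2A values was not tested.

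**Figure D4:**
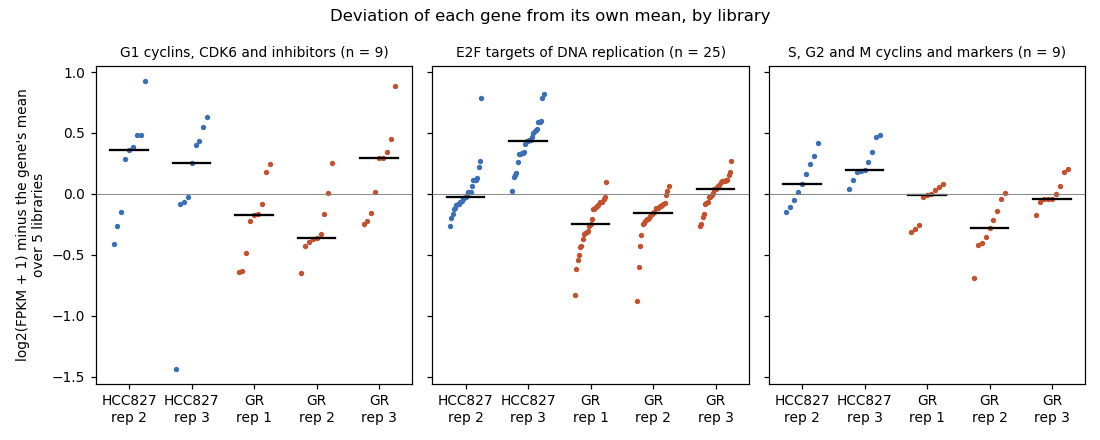
Points are genes, plotted by library as log2(FPKM + 1) minus the mean of that gene over the 5 libraries, and horizontal lines are medians. In the E2F target panel the HCC827 replicate 3 stands highest, with a median of 0.44 against -0.02 in HCC827 replicate 2, and HCC827/GR replicate 3 stands above the other HCC827/GR libraries, with 0.04 against -0.25 and -0.16.

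Genes beside CDKN1A and CDKN2A on the chromosome were compared to see whether they moved with them. Of the 3 nearest tested protein-coding genes on each side of CDKN1A, none of 6 was called by limma, with a median log2 fold change of -0.15 and a range of -0.40 to 0.97. Of the 6 around CDKN2A, placed by their symbols, none was called either, with a median of 0.45 and a range of -0.90 for MTAP to 1.01 for ELAVL2. With genes placed only through the Ensembl transcripts of their entries, which leaves out MTAP, the median of the 6 was 0.23 and the range -0.29 to 1.01. At an unadjusted p under 0.05, 1 gene near CDKN1A passed (KCTD20, log2 fold change 0.97) and 2 near CDKN2A (ELAVL2 at 1.01 and MTAP at -0.90), against 27.2% of all entries tested.

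Some non-coding entries near CDKN2A were lower too. Within 600 kb on either side, a window chosen after the values were seen, 9 entries placed through their Ensembl transcripts were tested. Of these, 4 were lower, against 5.71% of all entries tested. The 4 count CDKN2A itself, around which the window was drawn, and the CDKN2B-AS1 entry, which overlaps it. The comparison is therefore no test of the region. MIR31HG, a long non-coding RNA, was at 3.86 and 3.76 FPKM in HCC827 and at 1.70, 1.84 and 1.59 FPKM in HCC827/GR (log2 fold change -0.83, SE 0.09, limma adjusted p = 0.012). AL359922.2, an antisense transcript, was at 4.16 and 3.80 FPKM in HCC827 and at 2.07, 2.39 and 1.69 FPKM in HCC827/GR (log2 fold change -0.71, limma adjusted p = 0.038). The entry named CDKN2B-AS1, after the antisense RNA also called ANRIL, joins transcripts of MTAP, ERVFRD-3 and CDKN2B-AS1, so its log2 fold change of -0.77 (limma adjusted p = 0.046) belongs to no single gene. A separate MTAP entry names no Ensembl transcript and is not among the 9, though the gene lies in the window. It was at 1.48 and 1.11 FPKM in HCC827 and at 0, 0.114 and 0.666 FPKM in HCC827/GR (log2 fold change -0.90, limma adjusted p = 0.12). No strandedness is stated for the libraries, and reads of CDKN2A and of its antisense neighbours may not be separable.

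**Figure D5:**
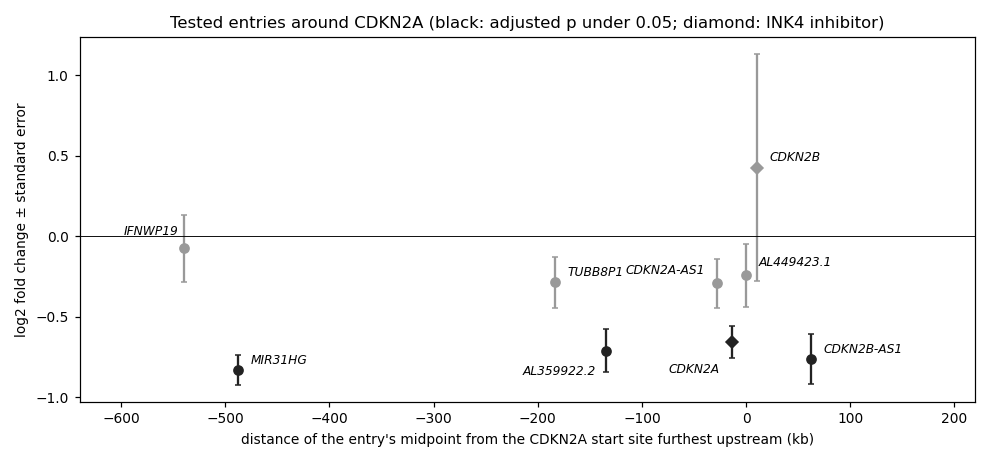
The 9 tested entries within 600 kb of CDKN2A that were placed through Ensembl transcripts are drawn, which leaves out MTAP. Positions are distances of their midpoint from the most upstream CDKN2A start (kb). Heights are the log2 fold change of HCC827/GR against HCC827, with its standard error. Of the 9 estimates 8 lie below 0 (49.8% of all entries tested), and CDKN2B, the exception, has the widest error.

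The Polycomb proteins are known repressors of the INK4 genes. Counted with MTAP and CDKN2B-AS1, 11 genes of that list were tested, with a median of -0.04. Of these, 1 was higher (5.26% of all entries tested) and 1 was lower (5.71%). The lower one was the joined CDKN2B-AS1 entry, which is no Polycomb gene. At an unadjusted p under 0.05, 2 were higher and 3 lower, against 27.2% of all entries tested in either direction. Polycomb genes stood on both sides. The 1 called higher at an adjusted p under 0.05 was PCGF2, a RING finger subunit of the Polycomb repressive complex that modifies histone H2A. It was at 4.38 and 5.69 FPKM in HCC827 and at 14.6, 9.97 and 12.6 FPKM in HCC827/GR (log2 fold change 1.14, SE 0.19, limma adjusted p = 0.032).

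The markers of cell type also differed between the lines. Of 5 epithelial markers tested, 4 were lower in HCC827/GR, against 5.71% of all entries tested. The median log2 fold change of the 5 was -1.52, with a summed FPKM of 443 to 573 in HCC827/GR and 1063 to 1182 in HCC827. The 4 were EPCAM and CDH1, which join epithelial cells to each other, and the keratins KRT19 and KRT18, with log2 fold changes of -3.04, -1.93, -1.52 and -0.93 (limma adjusted p of 0.0035, 0.012, 0.010 and 0.041). NKX2-1, a transcription factor of lung epithelium whose entry also joins SFTA3, had a log2 fold change of -1.64 (limma adjusted p = 0.011). The alveolar markers SFTPA1, SFTPB and SFTPC were under 0.2 FPKM in both lines. NAPSA had no entry and so was not measured, and alveolar identity rests on NKX2-1 alone. The blood and endothelial markers PTPRC and VWF stayed under 0.03 FPKM in every library. Of the 9 genes listed as blood, endothelial and fibroblast markers 8 had an entry and 3 were tested. Of these, PECAM1 was lower, at 4.34 and 3.32 FPKM in HCC827 and listed at 0 in HCC827/GR. That entry, assembled from the reads, names no Ensembl transcript and is the highest of 10 PECAM1 entries, so it does not stand for the whole gene. COL1A1, also tested, was at 0.73 and 0.39 FPKM in HCC827 and at 0.86, 0.75 and 0.51 FPKM in HCC827/GR (limma adjusted p = 0.70). The summed FPKM of those markers was 36.3 to 43.2 in HCC827 and 33.8 to 38.8 in HCC827/GR, nearly all from an entry that joins CD68 with EIF4A1 and other genes. The part of the epithelial change in the CDKN1A and CDKN2A values was not tested.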

How the data were processed

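The authors trimmed reads with Cutadapt, mapped them with Bowtie2 and TopHat2, and assembled and quantified genes with StringTie and Ballgown. They deposited FPKM values for 37181 entries. The submitters' processing notes name the build hg18, and versions are not given in the sources used here. Positions came from GENCODE release 29 (GRCh38), matched through 135164 of the 135299 Ensembl transcripts named in the table, and promoters from RefSeq (GRCh38.p14). The labels describe a small RNA library read from a single end, whereas the study's methods describe paired-end reads of RNA depleted of ribosomal RNA, and the table of gene FPKM does not settle which was used. Of 6 FPKM columns, 1 matched no sample and was left out.

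HCC827/GR was compared with HCC827 by limma 3.58.1 (R 4.3.3, two-sided, empirical Bayes with a trend) on log2(FPKM + 1), over entries averaging 0.5 FPKM or more. A call is a Benjamini-Hochberg adjusted p under 0.05. The limma fits, with and without the trend and with the replicate number as a block, and Ballgown's model were tested on simulated data. The other steps were not. The members and lists were chosen with earlier results of these data known. Named were all 10 members, RB1, CDK4, CDK2, CDKN2C, MTAP, CDKN2B-AS1, and up to 4 called genes per list with the largest change. Some genes that the rule names, all of 1 list, are not reported here. MIR31HG, AL359922.2, KCTD20, ELAVL2 and the window around CDKN2A were chosen after their values were seen. Other settings tried were 0.1 as pseudocount, a filter at 1 FPKM or none, 3 rescalings, no trend, Ballgown's model (library-size covariate, ordinary F test), the replicate number as a block, summed entries and each library left out. Shares used an exact permutation test. Over all entries tested, same-numbered libraries did not deviate together (r = 0.033 for replicate 2 and 0.015 for replicate 3), so the numbers were not taken as pairs. Among the E2F targets replicate 3 stood high in both lines, as given above, and pairing within that list was not tested. Python 3.11.15, pandas 2.3.3, scipy 1.17.1 and matplotlib 3.10.9 were also used.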

Additional observations from a re-analysis of the deposited data

How the results depend on the processing

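The count of G1 cyclins and inhibitors lower in HCC827/GR (2 as reported) was 1 with no filter on low values, 1 after quantile normalization and 0 under Ballgown's model. With the replicate block it was 0, a fit with 1 residual degree of freedom that calls 0 of all 16189 entries. Leaving out each library in turn gave 0 to 2. The 2 without HCC827/GR replicate 3 were CCNE2 and CDKN1A. The count higher, 0 as reported, was 0 to 1 without 1 library, the 1 being CDKN2B without HCC827 replicate 2. Signs turned for CCND3 (-0.21 under Ballgown's model, -0.093 to 0.53 without 1 library), CDK6 (0.006 with the replicate block, -0.33 to 0.11 without 1 library) and CDKN2B (-0.76 to 1.61 without 1 library). The CDKN2A share of the INK4 inhibitors, -8.48 percentage points in HCC827/GR against HCC827, ran from -19.5 to 2.57 without 1 library, the last without HCC827 replicate 3. The signs of the other 6 genes held in every alternative. Over the 9 other lists reported, 209 of 270 counts of higher or lower genes stayed within 1.5 times and 61 did not, 57 of them falling to 0. Many of the 209 were counts already at 0 as reported, so they do not show that the calls held. CDKN1C, SLBP, TOP2A and PCGF2 were each called in 8 of 15 alternatives, CUL4B in 7 of 15 and the joined CDKN2B-AS1 entry in 3 of 14.

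Over all entries, the 851 higher and 924 lower calls became 504 and 757 with no filter, 6 and 9 under Ballgown's model, and 202 to 485 and 287 to 477 without 1 library. The causes were not tested. Depth is unknown, so no limit of detection can be given. With 5 libraries the intervals are wide, and an adjusted p over 0.05 does not show that a gene was equal in the lines. Leaving a parental library out leaves 1, which is then assumed to vary like the HCC827/GR libraries.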

Other observations

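Of the CDK-activating complex, CDK7 and CCNH were counted above among the other G1 kinases and inhibitors, without their values, while its subunit MNAT1 had no entry. CDK7, the kinase that activates CDK4, CDK6 and CDK2, was at 7.43 and 7.32 FPKM in HCC827 and at 9.45, 10.1 and 10.6 FPKM in HCC827/GR. CCNH, its cyclin, was at 3.29 and 3.16 FPKM in HCC827 and at 4.54, 4.57 and 4.34 FPKM in HCC827/GR. The libraries of the lines did not overlap for either gene, as for 46.3% of all entries tested. Both missed the threshold, with log2 fold changes of 0.40 for CDK7 (limma adjusted p = 0.063) and 0.38 for CCNH (limma adjusted p = 0.060). Both genes were chosen after their values were seen.

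Of the ligase subunits that mark p27 for destruction, SKP2 was at 9.70 and 11.3 FPKM in HCC827 and at 17.4, 11.8 and 12.9 FPKM in HCC827/GR (log2 fold change 0.37, limma adjusted p = 0.29). CKS1B, its cofactor, was at 8.0 and 9.05 FPKM in HCC827 and at 6.41, 6.52 and 7.51 FPKM in HCC827/GR (log2 fold change -0.29, limma adjusted p = 0.19). The lines did not overlap for either gene, as for 46.3% of all entries tested, and neither passed the test. These too were chosen after their values were seen.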
